A study of Mus musculus with 8 samples.

Results

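The 40 genes described here encode cytokine receptor chains, Janus kinases, STAT transcription factors and the proteins that restrain them, and they are 40 of 21887 protein-coding genes. They were taken as a fixed list of gene symbols, and all 40 were found in the gene table. For each gene a window was read that runs from 2 kb before to 2 kb after the annotated span (mouse build GRCm38). The study profiled 5-hydroxymethylcytosine (5hmC), the oxidised form of 5-methylcytosine that the dioxygenase TET2 makes, by sequencing DNA fragments pulled down for 5hmC (hMeDIP-seq). The DNA came from germinal center B cells isolated from spleens of C57BL/6 mice, either TET2 Knock-Out (KO, 2 libraries) or TET2 Wild-Type (WT, 2 libraries). Replicates are numbered 2 and 3 in both genotypes, and paired values below are given in that order. The 4 input libraries were not analysed here. The labels do not give the knockout allele, any Cre driver, an immunisation, or the age or sex of the mice, and they do not say whether the libraries came from separate animals. Any p-value between genotypes thus speaks of the scatter among 4 libraries, and that scatter may be technical.

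Most receptors of this list are paired chains whose cytoplasmic tails hold Janus kinases (JAKs); the IL-1 and IL-17 family receptors signal through other adaptors, without JAKs. The kinases phosphorylate STAT factors, which enter the nucleus and switch on target genes, while SOCS proteins, PIAS proteins and tyrosine phosphatases end the signal. In germinal centers, IL-4 and IL-21 from follicular helper T cells act through this pathway on B cells. 5hmC in gene bodies and enhancers is an intermediate of active demethylation, and CpG-dense promoters usually carry little of it.

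Promoters of the list were almost free of 5hmC peaks, so the start-site sequences are shown first, CpG sites in capitals. The sequences are those of RefSeq (build GRCm38.p6), 250 bases before to 50 bases after a start site, printed 5′ to 3′ on the strand of the gene. The table held 37 promoters of 31 of the 40 genes. No sequence was matched for Csf2rb, Il10ra, Il10rb, Il12rb1, Il17ra, Il2rb, Ptpn2, Socs2 and Socs5. The first 3 below are the ones that overlapped a peak in any library: a start site of Il18r1 (chr1:40465756-40466055, plus strand), Il2ra (chr2:11642542-11642841, plus strand) and Il7r (chr15:9529827-9530126, minus strand). The next 3 are promoters without a peak, from genes that the results below turn on: Il4ra (chr7:125552021-125552320, plus strand), Ifngr2 (chr16:91546809-91547108, plus strand) and Stat3 (chr11:100939491-100939790, minus strand).
Il18r1: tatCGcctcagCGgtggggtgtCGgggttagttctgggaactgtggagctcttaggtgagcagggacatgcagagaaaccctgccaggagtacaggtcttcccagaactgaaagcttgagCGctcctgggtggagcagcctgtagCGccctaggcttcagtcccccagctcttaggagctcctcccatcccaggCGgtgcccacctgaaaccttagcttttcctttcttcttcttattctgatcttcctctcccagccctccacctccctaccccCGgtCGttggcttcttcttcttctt
Il2ra: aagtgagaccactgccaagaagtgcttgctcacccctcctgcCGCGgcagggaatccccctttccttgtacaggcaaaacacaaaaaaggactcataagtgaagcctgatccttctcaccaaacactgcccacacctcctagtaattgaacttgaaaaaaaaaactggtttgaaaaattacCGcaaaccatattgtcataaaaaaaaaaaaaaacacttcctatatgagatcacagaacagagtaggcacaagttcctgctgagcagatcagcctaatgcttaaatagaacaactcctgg
Il7r: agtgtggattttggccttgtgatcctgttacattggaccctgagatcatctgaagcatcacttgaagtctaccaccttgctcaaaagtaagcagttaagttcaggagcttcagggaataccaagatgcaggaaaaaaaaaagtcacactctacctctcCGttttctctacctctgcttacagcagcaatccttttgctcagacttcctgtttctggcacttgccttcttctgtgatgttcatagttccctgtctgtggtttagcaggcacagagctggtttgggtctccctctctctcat
Il4ra: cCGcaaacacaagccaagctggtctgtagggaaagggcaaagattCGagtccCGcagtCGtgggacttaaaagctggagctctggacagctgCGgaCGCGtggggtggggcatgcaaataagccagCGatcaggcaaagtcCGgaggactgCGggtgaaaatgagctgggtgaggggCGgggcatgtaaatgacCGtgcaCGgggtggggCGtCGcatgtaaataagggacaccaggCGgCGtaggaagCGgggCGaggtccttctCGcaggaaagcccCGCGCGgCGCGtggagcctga
Ifngr2: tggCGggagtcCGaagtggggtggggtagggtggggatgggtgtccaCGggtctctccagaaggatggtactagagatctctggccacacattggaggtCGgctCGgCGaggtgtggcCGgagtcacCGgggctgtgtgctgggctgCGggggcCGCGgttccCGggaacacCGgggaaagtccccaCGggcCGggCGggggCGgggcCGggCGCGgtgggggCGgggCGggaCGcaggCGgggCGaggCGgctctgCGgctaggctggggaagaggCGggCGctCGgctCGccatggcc
Stat3: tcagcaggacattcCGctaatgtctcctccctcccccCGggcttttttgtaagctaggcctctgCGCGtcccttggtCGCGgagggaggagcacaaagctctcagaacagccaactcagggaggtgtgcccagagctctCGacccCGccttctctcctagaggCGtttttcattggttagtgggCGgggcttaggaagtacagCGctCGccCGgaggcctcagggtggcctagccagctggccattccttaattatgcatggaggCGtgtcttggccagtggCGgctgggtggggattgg

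The 3 promoters with a peak held 8 CpG sites (Il18r1), 3 (Il2ra) and 1 (Il7r), against 25 in Il4ra, 31 in Ifngr2 and 15 in Stat3. Few CpG sites also occurred without a peak, as in the promoters of Stat4 (2 and 4), Il9r (5), Il21r (7) and Stat6 (8). Over the list the number of CpG sites ran from 1 to 50 with a median of 14, and the median of all promoters was 13. Over promoters of all genes it was 11 with a peak in any library and 13 without one. Peaks covered 128 and 0 bases of the Il18r1 promoter in the KO libraries and 166 and 149 bases in the WT libraries. The Il2ra promoter was covered over 266 bases in KO replicate 2 and over 0 bases in the other 3 libraries. The Il7r promoter was covered over 0 and 145 bases in the KO libraries and over 0 and 182 bases in the WT libraries. No member promoter had a peak in all 4 libraries, and the genotypes overlapped at Il2ra and Il7r. At Il18r1 both KO values lay below both WT values, with one KO library at 0. The other 34 promoters had no peak in any library. Thus 3 of 37 member promoters (8.11%) overlapped a peak, against 8.22% of 21263 promoters of protein-coding genes, a share near the background. None of the 37 overlapped a region that the authors list as higher in WT. The palindrome TTCNNNGAA, the core letters of a STAT motif, was searched on both strands, which give the same matches. It occurred in 8 of the 37 promoters (21.6%), those of Cish, Ifnar1, Ifnar2, Il12rb2, Il18r1, Il1r2, Il7r and Socs3, against 7.69% of all promoters. Cish and the Il18r1 promoter printed above held 2 matches each. A match is a run of letters and not a binding site.

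Away from the promoters the genes were densely marked. On average over the 4 libraries, peaks covered a median of 7.67% of a member window, against 3.93% over the windows of all protein-coding genes. Of the 40 genes, 21 lay above the upper quartile of all genes (6.80%) and 11 above their 90th percentile (10.7%). The highest level per length belonged to Il21r, the receptor of IL-21, with 23.7% of its window covered (percentile 99.1 of all genes). Il4ra, the chain that binds IL-4 and IL-13 and that lies next to Il21r on chromosome 7, followed with 20.3% (percentile 98.4). Ptpn1, a phosphatase acting on JAK2 and TYK2, and Stat6, the STAT activated by IL-4, each had 17.2%, and Il10rb, a chain shared by the IL-10 family, had 16.7%. At the other end stood Il7r, the IL-7 receptor of early lymphocytes, with 0.883% (percentile 19.9), the feedback inhibitor Socs3 with 2.04%, the shared IL-6 family chain Il6st with 2.60% and the granulocyte receptor Csf3r with 2.83%. The first pair in this order differed by less than the spread between libraries: Il21r was covered over 25.6% and 18.9% in the KO libraries and over 30.3% and 20.2% in the WT libraries, and Il4ra over 22.2% and 13.0% in the KO libraries and over 27.0% and 19.0% in the WT libraries. Windows can also hold parts of neighbouring genes, as that of Stat6 does with Nab2. The widest stretch of merged Stat6 peaks, chr10:127660901-127663138, lies mostly past the gene end at 127660987. Coverage of DNA by 5hmC peaks does not measure the expression of a gene.

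**Figure D1:**
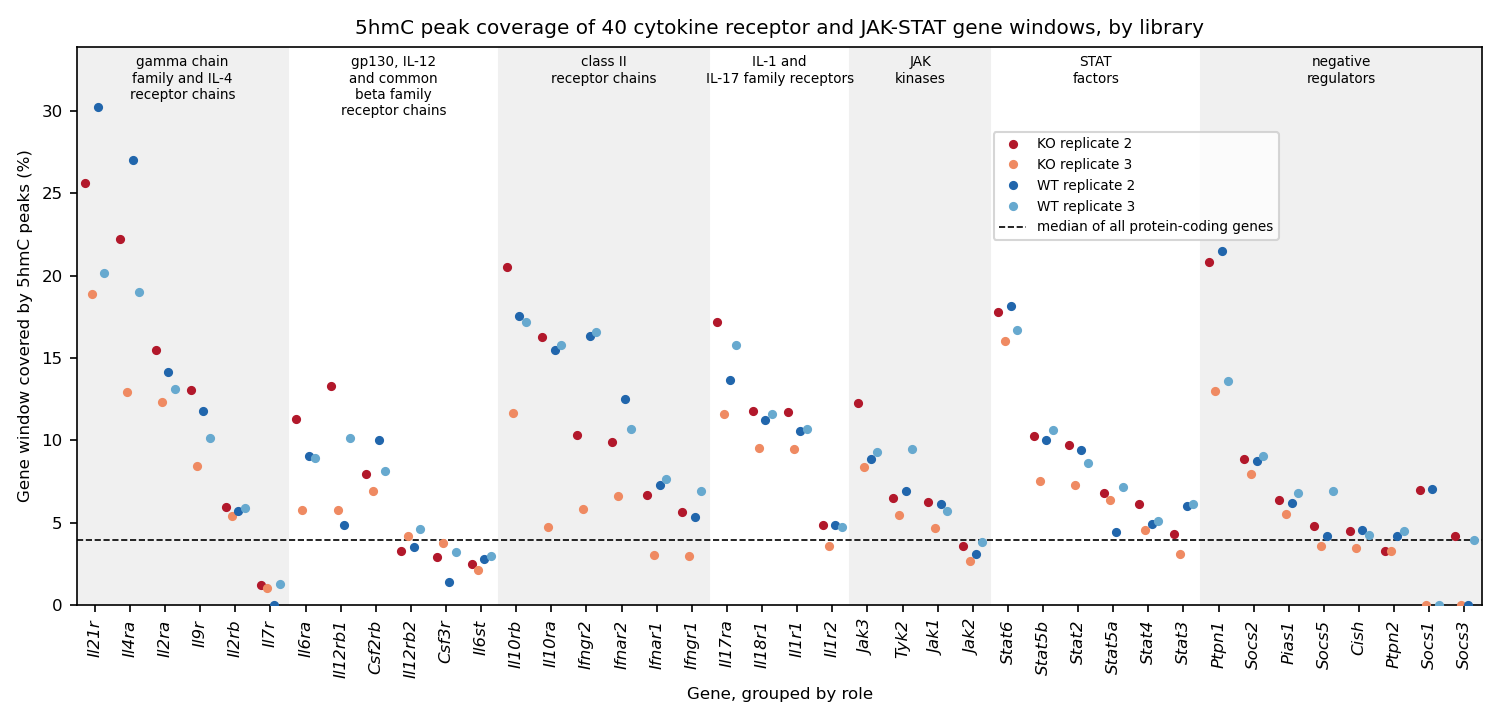
Share of each gene window covered by 5hmC peaks (%, vertical axis) for the 40 genes (horizontal axis, grouped by role), one point per library, KO left of WT, before scaling. The dashed line is the median of all protein-coding genes, 3.93%. Il21r and Il4ra stand highest, and KO replicate 3 is the lowest point for most genes.

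The peak lists differed in extent. They held 280413 and 279546 peaks in the KO libraries and 270542 and 300950 peaks in the WT libraries, and they covered 137.0 and 110.6 Mb in the KO libraries and 124.8 and 139.3 Mb in the WT libraries. KO replicate 3 had the shortest peaks, with a median width in member windows of 371.5 bases, against 429 to 459 bases in the other 3 libraries. Read numbers were not given. Marker genes of cell types were read for description only, since 5hmC coverage does not measure expression. The summed windows of 12 germinal center B cell marker genes were covered over 19.6% and 13.8% in the KO libraries and over 19.5% and 17.4% in the WT libraries. T cell markers reached 3.58 to 5.33% in the 4 libraries, myeloid markers 6.64 to 8.68% and plasma cell markers 1.89 to 2.73%, and Cd8a, Lyz2 and Sdc1 had no covered base in any library. No marker gene of the 4 lists passed the test between genotypes, and their part in the results below was not tested.

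Over all member windows together, overlapping windows counted once, peaks covered 150816 and 109543 bases in the KO libraries and 147855 and 142624 bases in the WT libraries, out of 1710380 bases. KO replicate 2 was the highest of the 4 and KO replicate 3 the lowest, so the genotypes overlapped. The KO mean of 130179.5 bases lay below the WT mean of 145239.5 bases, a difference (KO minus WT) of -15060 bases with an exact two-sided permutation p of 1; this design of 2 against 2 cannot give a p below 0.333. Without KO replicate 3 the difference was 5576.5 bases. Before scaling, KO replicate 3 was the lowest library in 32 of the 36 members tested (88.9%), against 69.3% of all genes tested, and its part in the lower KO values was not tested. For the test of single genes the libraries were therefore scaled to equal totals.

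No gene of the list passed the test between KO and WT. Covered bases per window, scaled to equal totals, were compared on the log2(covered bases + 200) scale with limma across all 14001 genes with a scaled mean of at least 500 covered bases, with Benjamini-Hochberg adjustment and a threshold of 0.05. Of the 40 members 36 reached that mean, and Il7r, Socs1, Socs3 and Cish did not. With limma 0 of the 36 passed, as did 0 of all 14001 genes (0%), and the smallest adjusted p was 0.992 for both. At an unadjusted p under 0.05 there were 2 members, Ifngr2 and Stat3, against 568 of the 14001 genes (4.06%). The log2 change, KO over WT, was negative in 20 members and positive in 16, with a median of -0.02, against 0.02 over all genes tested. Both KO libraries lay below both WT libraries in 9 of the 36 (25.0%), against 13.6% of all genes tested. They lay above both in 4 (11.1%), Stat4, Jak3, Il1r1 and Il2ra, against 18% of all genes tested. Without scaling the median of all genes moved to -0.10, 8 of the 36 members (22.2%) had both KO libraries below both WT libraries, against 18.2% of all genes tested, and no member had them above.

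**Figure D2:**
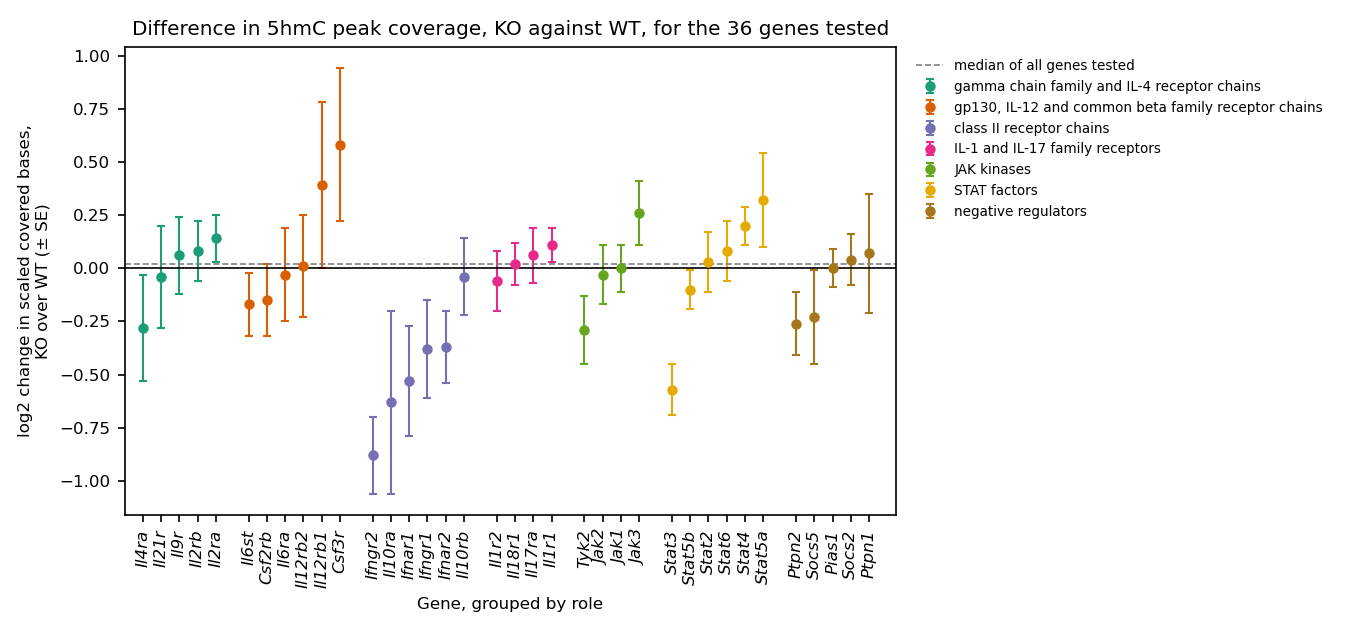
Log2 change in scaled covered bases, KO over WT, on the log2(covered bases + 200) scale (vertical axis, point and standard error from limma) for the 36 genes tested (horizontal axis, coloured by role). The dashed line is the median of all genes tested, 0.02. The class II receptor chains lie below 0, Ifngr2 lowest at -0.88, and the other roles scatter around 0.

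The class II receptor chains, which bind interferons and IL-10, held the lowest values of the list. All 6 had a negative log2 change with a median of -0.45, and none passed the test. In 4 of the 6 both KO libraries lay below both WT libraries, against 13.6% of all genes tested. Before scaling this held in 3 of the 6, Ifngr2, Ifnar1 and Ifnar2, against 18.2% of all genes tested. Ifnar2, Il10rb, Ifnar1 and Ifngr2 lie between positions 91372783 and 91564007 of chromosome 16, so the 6 signs may not be independent. Unscaled, peaks covered 17044 and 8890 bases summed over the 6 windows in the KO libraries and 18506 and 18335 bases in the WT libraries, so KO replicate 2 stood near the WT libraries and KO replicate 3 far below them. Without KO replicate 3 the median was -0.15 with 4 of the 6 negative, and with peaks of at least 5-fold enrichment alone it was 0.18 with 2 of the 6 negative. This group was picked out once its values were known.

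Ifngr2, the chain of the interferon gamma receptor that carries JAK2 (chromosome 16, 91547059 to 91564007), had the largest difference in the list. Scaled coverage was 2024 and 1442 bases in the KO libraries, against 3425 and 3204 bases in the WT libraries. Both KO values lay below both WT values, and limma gave a log2 change of -0.88 ± 0.18 (SE), adjusted p = 0.992, unadjusted p = 0.00518. Without KO replicate 3 the change was -0.66, and with equal numbers of peaks per library it was -0.57. Its window held 6 union regions, which are the merged peaks of the 4 lists, and 2 of them had peaks in all 4 libraries. The region nearest the start site, at chr16:91548964-91549853, had deposited fold enrichments of 4.47 and 3.03 in the KO libraries and 8.39 and 5.75 in the WT libraries. The other, at chr16:91550011-91550944, which holds a WT-higher region, had 4.46 and 3.79 in the KO libraries and 5.28 and 3.06 in the WT libraries, WT replicate 3 the lowest. A pair of regions further in, at chr16:91552551-91553071 and chr16:91555963-91556721, had peaks in the WT libraries only.

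The partner chain Ifngr1, which binds interferon gamma, had 1183 and 776 scaled bases in the KO libraries and 1198 and 1428 bases in the WT libraries, a log2 change of -0.38 (standard error 0.23). KO replicate 2 was only just below the lower WT library, and before scaling the genotypes overlapped, with 1264 and 660 bases in the KO libraries and 1195 and 1549 bases in the WT libraries. Ifnar1 and Ifnar2, the chains of the type I interferon receptor, lie on chromosome 16 with Il10rb and Ifngr2. Ifnar2 had 3411 and 2861 scaled bases in the KO libraries, against 4615 and 3624 bases in the WT libraries (log2 change -0.37, standard error 0.17). Ifnar1 had 1845 and 1058 bases in the KO libraries, against 2153 and 2086 bases in the WT libraries (-0.53, standard error 0.26). The groups did not overlap in either gene, and the adjusted p was 0.992 in all 3. For Ifnar1 the change was -0.18 without KO replicate 3 and -0.88 without KO replicate 2, and for Ifngr1 it was -0.13 and -0.63 in the same order. For Ifnar2 it was -0.20 without WT replicate 2.

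The IL-10 receptor chains did not separate the genotypes. Il10ra, the chain specific for IL-10, was covered before scaling over 3146 and 914 bases in the KO libraries and over 2995 and 3052 bases in the WT libraries. Only KO replicate 3 was low there, and KO replicate 2 was the highest of the 4. Il10rb was covered over 4858 and 2759 bases in the KO libraries and over 4150 and 4067 bases in the WT libraries, with the KO libraries on both sides of the WT libraries. The windows of Ifnar2 and Il10rb share 3433 bases, and no WT-higher region lay in the shared stretch.

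**Figure D3:**
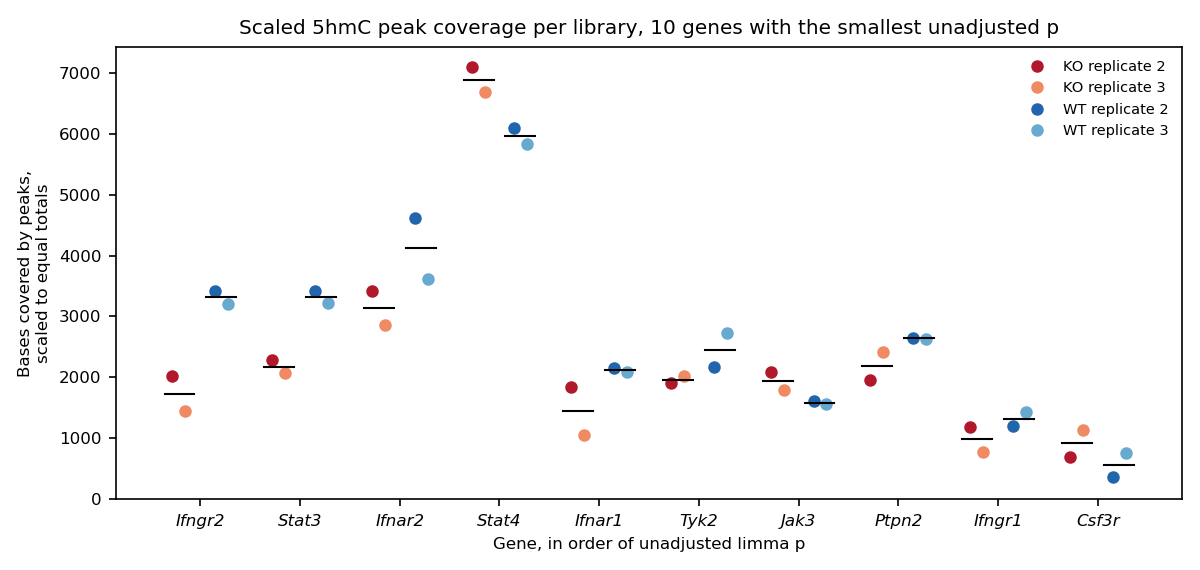
Bases covered by 5hmC peaks, scaled to equal totals (vertical axis), for the 10 genes with the smallest unadjusted limma p (horizontal axis), one point per library and a bar at the mean of each genotype, KO left of WT. The genotypes do not overlap in 9 of the 10 genes, KO lower in 7 and higher in 2 (Stat4 and Jak3), and they overlap in Csf3r. Picking genes by this test favours separated groups. Of all 36 members tested KO was lower without overlap in 9 and higher in 4, against 13.6% and 18% of all genes tested.

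Receptors of the common gamma chain family and Il4ra had the highest median coverage per length of the roles (12.3% of a window, against 11.1% for the class II chains), although Il7r, the least covered gene, is among them. Of 5 tested, 2 were lower and 3 higher in KO by sign, with a median log2 change of 0.06. Il4ra was covered over 6940 and 4043 bases in the KO libraries and over 8429 and 5937 bases in the WT libraries. Il21r was covered over 8998 and 6631 bases in the KO libraries and over 10632 and 7084 bases in the WT libraries. In both genes replicate 2 exceeded replicate 3 within each genotype, and the genotypes overlapped. Il2ra, the alpha chain of the IL-2 receptor, had 7891 and 7897 scaled bases in the KO libraries and 7729 and 6589 bases in the WT libraries, and unscaled the genotypes overlapped. Il2rb, the chain shared by IL-2 and IL-15, ranged over the 4 libraries from 1957 to 2159 unscaled bases. Il9r, the IL-9 receptor, was the third gene with a positive sign (0.06). Il7r had 1 short peak in 3 of the libraries and none in WT replicate 2.

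In the gp130, IL-12 and common beta families 3 of 6 genes were lower and 3 higher by sign, with a median of -0.01. Csf3r, the G-CSF receptor, had 699 and 1128 scaled bases in the KO libraries and 363 and 754 bases in the WT libraries, which overlapped (log2 change 0.58, standard error 0.36, adjusted limma p 0.992). Leaving out 1 library moved that change to 0.20 without WT replicate 2, 0.30 without KO replicate 3 and 0.95 without WT replicate 3. It has no union region with peaks in all 4 libraries. Il12rb1, a chain of the IL-12 and IL-23 receptors, also varied within genotypes, with 2553 and 1103 unscaled bases in the KO libraries and 932 and 1941 bases in the WT libraries. Il6st had 1102 and 1167 scaled bases in the KO libraries, below 1299 and 1296 bases in the WT libraries (log2 change -0.17). Il6ra, the IL-6 binding chain, Il12rb2, the second IL-12 receptor chain, and Csf2rb, the common beta chain, overlapped between genotypes.

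The IL-1 and IL-17 family receptors lay close to 0, between -0.06 and 0.11. Il1r1, the signalling receptor of IL-1, had 10740 and 10910 scaled bases in the KO libraries, above 10373 and 9631 bases in the WT libraries, but 11472 and 9274 unscaled bases in the KO libraries and 10346 and 10445 bases in the WT libraries, which overlapped. Il1r2, the decoy receptor of IL-1, Il18r1, the IL-18 binding chain, and Il17ra, the shared IL-17 chain, overlapped between genotypes on the scaled values.

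The kinases differed little. Jak3, the kinase bound to the common gamma chain, had 2092 and 1793 scaled bases in the KO libraries, above 1615 and 1556 bases in the WT libraries (log2 change 0.26, standard error 0.15). Tyk2, a kinase of the interferon and IL-12 receptors, had 1902 and 2019 bases in the KO libraries, below 2170 and 2728 bases in the WT libraries (-0.29, standard error 0.16). Both had an adjusted limma p of 0.992. Without WT replicate 3 the Tyk2 change was -0.13, and without WT replicate 2 it was -0.44. For Jak3 the change was 0.01 when all lists were held to the same number of peaks. The Jak3 separation was not seen before scaling, with 2234 and 1524 bases in the KO libraries and 1611 and 1688 bases in the WT libraries. Jak1, the kinase common to most receptors here, was covered over 7367 and 5514 unscaled bases in the KO libraries and over 7225 and 6715 bases in the WT libraries. Its log2 change was 0.00 to 2 decimals, and that of Jak2 was -0.03.

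Among the STAT factors, Stat3 and Stat4 stood apart in opposite directions by sign. Stat3, activated by IL-6, IL-10 and IL-21, had 2280 and 2073 scaled bases in the KO libraries, against 3424 and 3219 bases in the WT libraries. The groups did not overlap, and limma gave a log2 change of -0.57 ± 0.12 (SE), adjusted p = 0.992, unadjusted p = 0.00559. Without KO replicate 3 it was -0.51, and with equal numbers of peaks -0.37. Of 11 union regions in Stat3, 4 had peaks in all 4 libraries, and 2, at chr11:100890116-100890491 and chr11:100930024-100930501, had peaks in both WT libraries and no KO library. Stat4, activated by IL-12, had 7091 and 6690 bases in the KO libraries, against 6097 and 5836 bases in the WT libraries (log2 change 0.20, standard error 0.09, adjusted limma p 0.992). Before scaling its KO libraries, with 7574 and 5687 bases, lay on both sides of the WT libraries, with 6081 and 6329 bases. Stat6 was covered over 3918 and 3527 unscaled bases in the KO libraries and over 3994 and 3678 bases in the WT libraries, which overlapped. Stat2, the interferon STAT, had a log2 change of 0.03. Stat5a and Stat5b are adjacent near-copies on chromosome 11 whose windows share 3654 bases, and how reads matching both genes were placed is unstated; their log2 changes were 0.32 and -0.10.

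The negative regulators gave 3 lower and 2 higher by sign among 5 tested, with a median of 0.00 to 2 decimals. Ptpn2, a phosphatase of JAK1, JAK3 and several STATs, had 1955 and 2414 scaled bases in the KO libraries, below 2649 and 2628 bases in the WT libraries (log2 change -0.26, standard error 0.15, adjusted limma p 0.992). Without KO replicate 2 the change was -0.12, and without KO replicate 3 it was -0.40. Ptpn1 was covered over 10963 and 6833 unscaled bases in the KO libraries and over 11322 and 7163 bases in the WT libraries, a split by replicate number and not by genotype. Socs5, a SOCS adaptor, was covered over 1652 and 1229 bases in the KO libraries and over 1438 and 2378 bases in the WT libraries, which overlapped. Socs2, an inhibitor of growth hormone signalling, and Pias1, a SUMO ligase, had log2 changes of 0.04 and 0.00. The feedback inhibitors Socs1, Socs3 and Cish each held 1 union region. That of Cish, at chr9:107295055-107295536 upstream of the gene, had peaks in all 4 libraries with fold enrichments of 8.05 and 5.68 in the KO lists and 8.28 and 7.49 in the WT lists. The Socs1 region had a peak in replicate 2 of each genotype, and the Socs3 region in KO replicate 2 and WT replicate 3.

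The authors' deposited tables of differential regions gave the list in another form, as short regions called higher in WT or higher in KO, with a score for each but no replicate values. Which libraries were compared, and on what scale the score runs, is unstated in the sources at hand. Member windows held 47 WT-higher regions in 24 of the 40 genes (60.0%), against 28.3% of the 18310 protein-coding genes with a union region. None held a KO-higher region, which 0.104% of those genes do. Member windows also held more union regions, a median of 7.5 against 4.0. Counted per union region, 43 of 363 (11.8%, Wilson 95% interval 8.91 to 15.6%, which covers counting error only) held a WT-higher region, against 7.26% over all protein-coding gene windows. At a score of at least 5 the count was 17 regions in 14 genes (35.0%, against 15.8% of genes), and 4.13% of member union regions held one, against 3.13% over all gene windows.

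By role, 10 of 39 union regions of the class II receptor chains (25.6%) held a WT-higher region, and 1 of 47 in the gp130, IL-12 and common beta families (2.13%). The other roles lay between 7.81% for the STAT factors and 13.9% for the JAK kinases. In single genes the highest count was 4, in Socs5 and in Il21r. Ifngr2, Il10ra, Il1r1, Jak1 and Ptpn1 had 3 each, and Ifnar2, Il10rb, Il18r1, Il2ra, Il4ra, Socs2 and Stat6 had 2 each. Another 10 genes had 1: Il17ra, Il1r2, Il6ra, Il9r, Jak2, Jak3, Pias1, Stat2, Stat3 and Stat5b. The remaining 16 had none: Cish, Csf2rb, Csf3r, Il12rb1, Il12rb2, Il2rb, Il7r, Socs1, Socs3, Stat4, Stat5a, and also Ifnar1, Ifngr1, Il6st, Ptpn2 and Tyk2, in which both KO libraries lay below both WT libraries in scaled coverage. The only WT-higher regions of Il9r and Stat2 lay in the 2 kb flanks, and on the gene spans alone 22 members held one.

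**Figure D4:**
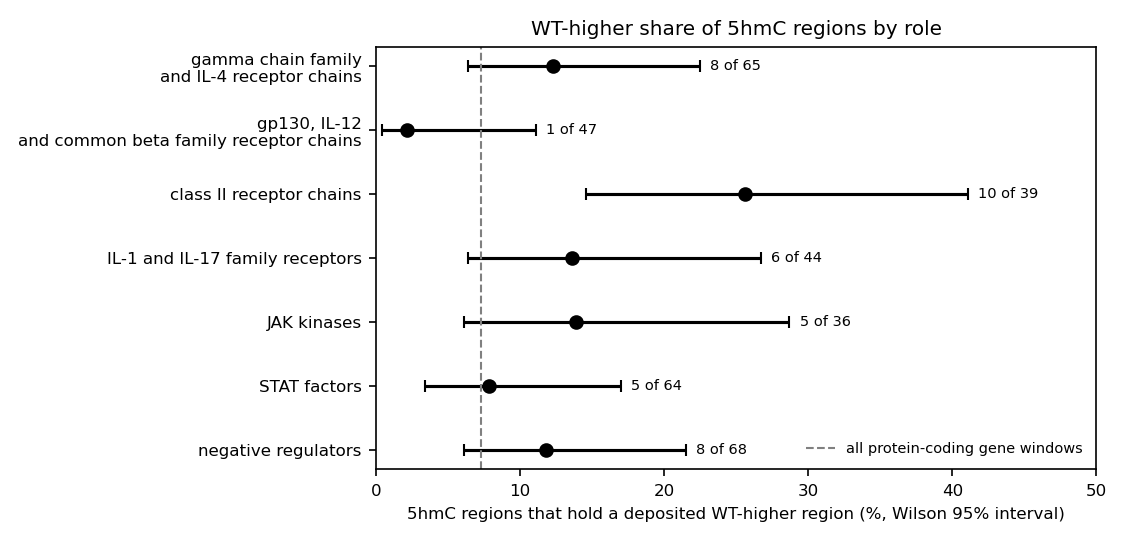
Share of union regions that hold a deposited WT-higher region (%, horizontal axis, point and Wilson 95% interval) by role (vertical axis), with the counts beside each interval. The dashed line is the share over all protein-coding gene windows, 7.26%. The class II receptor chains, at 25.6%, stand highest, and the gp130, IL-12 and common beta families, at 2.13%, lowest.

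Among the 47 WT-higher regions in member windows, the 5 highest scores of the authors' deposited table lay in Il10ra, Pias1, Socs5 and Stat3. Of these 47 regions of the authors' deposited table, Il10ra held the highest pair, at chr9:45253916-45254213 (score 8.84) and chr9:45256572-45256801 (score 8.69). The first overlapped peaks of both WT libraries and of neither KO library, and the second a peak in every library but KO replicate 3. A region of the authors' deposited table in Pias1, at chr9:62935940-62936147 (score 7.19), overlapped a peak of WT replicate 2 alone. That in Socs5, at chr17:87120650-87120873 in the authors' deposited table (score 6.91), overlapped no peak in any library. The Stat3 region of the authors' deposited table, at chr11:100930038-100930238 (score 6.87), overlapped peaks of 3.62-fold and 3.63-fold in the WT lists and none in the KO lists. Over the 47 member regions the score of the authors' deposited table ran from 3.34 to 8.84 with a median of 4.49, against 4.77 over the whole table.

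Many of the WT-higher regions in these genes lay where a KO library also had a peak. Of the 47, 33 overlapped a peak in KO replicate 2 and 26 in KO replicate 3, against 42 in WT replicate 2 and 39 in WT replicate 3. All 4 libraries had a peak at 25 of them (53.2%), against 76.1% of the whole table, and both WT libraries and no KO library at 7 (14.9%), against 3.63% of the whole table. Another 6 had a peak in every library but KO replicate 3, and 4 in no library. At 19 of the 25 with peaks in all 4 lists the lowest fold was that of KO replicate 3, which was also the lowest at 60.4% of all member regions with 4 peaks. Both KO folds lay below both WT folds at 5 of the 25. The WT-higher regions lay inside the gene spans in 42 cases and in the 2 kb flanks in 5. Of 35 with an annotated start site, 1 lay within 2 kb of it, in Il1r2 at 1206 bases, and the median distance was 17007 bases. For comparison, 23 of 298 member union regions lay within 2 kb of a start site.

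**Figure D5:**
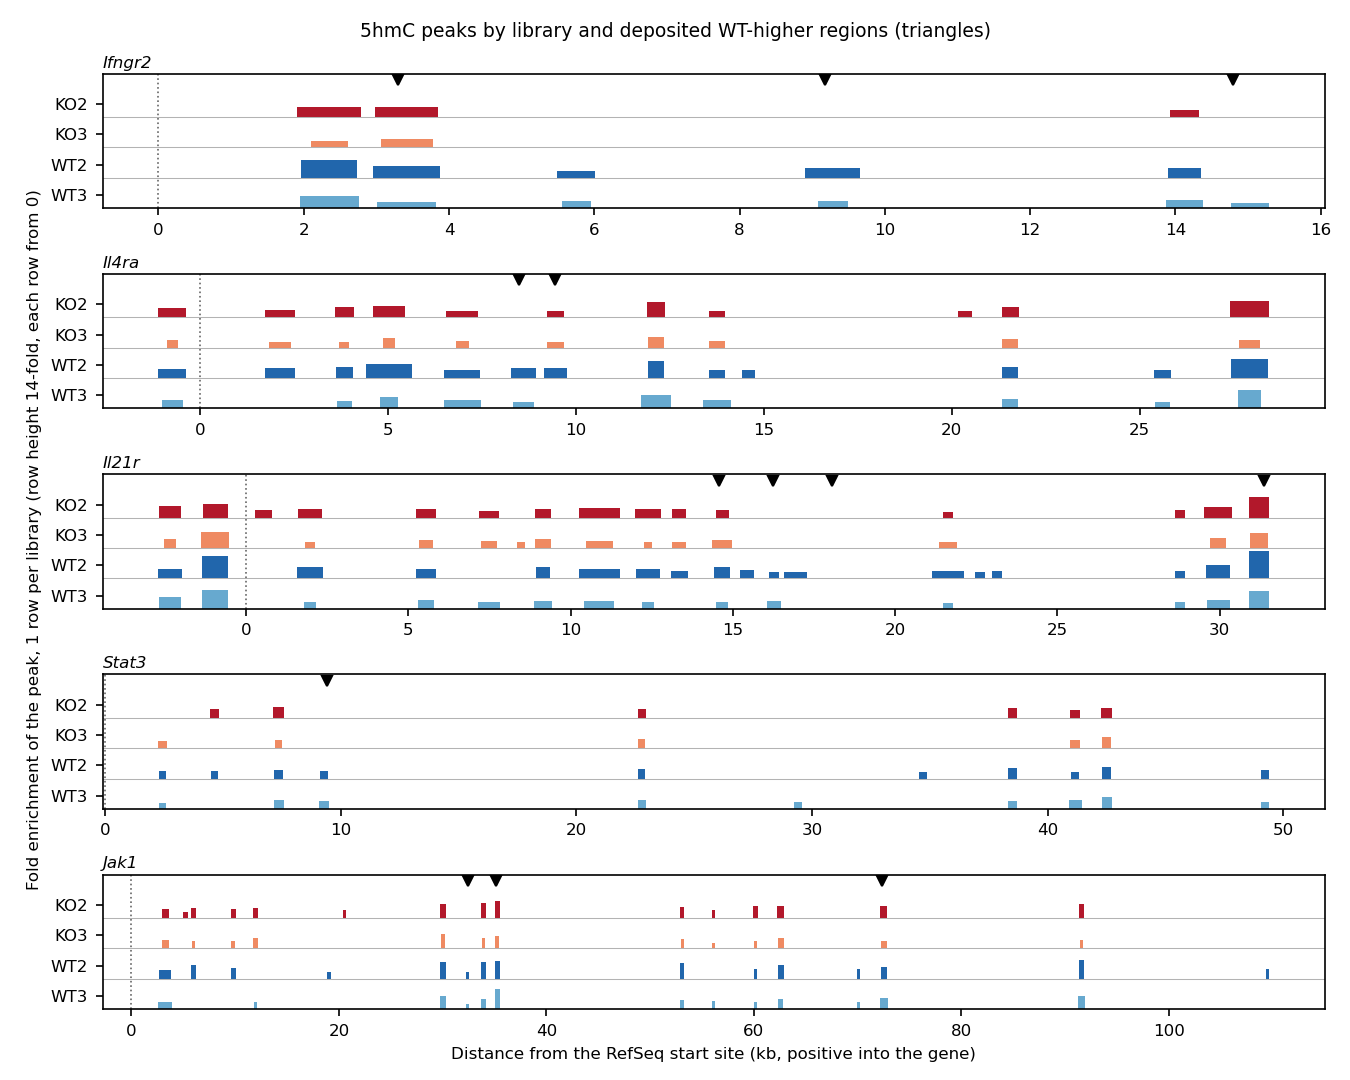
Peaks of the 4 libraries along Ifngr2, Il4ra, Il21r, Stat3 and Jak1, by distance from the RefSeq start site (kb, horizontal axis, the dotted line is the start site). Bar height is the deposited fold enrichment, bar width the bases covered and each bar is centred on its union region, one row per library with the KO rows above the WT rows; black triangles are deposited WT-higher regions. The triangles lie within the genes or near their ends and none at a start site.

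The presence of peaks alone was also compared. Of the 363 member union regions, 197 (54.3%) had a peak in all 4 libraries. Peaks in both WT libraries with none in KO were found at 15 (4.13%), against 2.24% over all protein-coding gene windows. The opposite pattern, both KO libraries and no WT library, was found at 4 (1.10%), against 1.26%, a share near the background. Regions that KO replicate 3 alone lacked were more numerous than either, 28 (7.71%), against 5.06% over all windows. The 15 lay in Ifngr1, Ifngr2, Il10ra, Il21r, Il4ra, Il6st, Jak1, Stat2, Stat3 and Tyk2, and 6 of them held a WT-higher region. The 4 lay in Csf3r, Il6st, Pias1 and Stat2. These peaks were weak in the authors' lists, with fold enrichments of 2.52 to 4.66 at the 15 and 2.71 to 4.55 at the 4, near or below the median of 4.05 to 4.71 over all member peaks in the 4 lists. With peaks of at least 5-fold enrichment alone, 4 regions of the first kind and 1 of the second were found. They are other regions, since every peak at the 15 and the 4 lies under 5-fold. At that cut KO replicate 3 kept 100175 peaks, against 144990 in KO replicate 2 and 159906 and 144225 in the WT libraries.

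The 5hmC sites of the list were ranked by mean fold among the regions with a peak in all 4 libraries. That the top sites are shared by all libraries was thus set by the ranking. The region of highest mean fold lay in Stat4 at chr1:52046176-52047270, with 16.41-fold and 13.06-fold in the KO lists and 20.29-fold and 13.81-fold in the WT lists. It held no WT-higher region. Ifnar2 followed at chr16:91391811-91392562 with 18.01-fold and 11.38-fold in the KO lists and 14.54-fold and 17.34-fold in the WT lists. In Il2rb, at chr15:78486496-78487275, the folds were 14.34 and 11.77 in the KO lists and 16.98 and 13.29 in the WT lists. KO replicate 3 gave the lowest fold at each of these sites. The Il18r1 region at chr1:40496116-40497409 had 14.67-fold and 10.8-fold in the KO lists and 16.28-fold and 13.95-fold in the WT lists. In Stat6, at chr10:127657562-127658414, the folds were 10.86 and 8.93 in the KO lists and 16.36 and 13.14 in the WT lists. The regions of Ifnar2, Il18r1 and Stat6 each held 1 WT-higher region. Fold enrichments are the authors' own values within each list and were not tested between lists.

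Genes around the list were read in the same way: 86 further genes of the pathway, of which 66 were tested, 0 passed with limma, and 34 (39.5%) held a WT-higher region, against the 28.3% of genes given above. Of 35 other receptor chains 16 (45.7%) held 28 such regions, and of 14 other regulators 7 held 34. Cytokine ligand genes had 4 regions in 3 of 22 genes (13.6%), and 8 of 15 STAT target genes (53.3%) held 20. The most regions lay in Cblb, a ubiquitin ligase that restrains antigen receptor signals, with 15, and in the cyclin gene Ccnd3 with 10. Ptprc, the CD45 phosphatase, had 8, Ptpn6, the phosphatase SHP-1, had 5 and Ghr, the growth hormone receptor, had 4. Il2rg, the common gamma chain itself, and Epor had no covered base in any library.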

How the data were processed

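Per the labels, 5hmC-enriched genomic DNA was sequenced in 4 libraries. The submitters' processing notes say that the tools were BWA (0.7.12-r1039) and MACS2 (2.1.0.20151222) and the build GRCm38.p3, without settings. The authors deposited 1 peak list per library, so peaks were called per library. Each deposited list gives a score, a fold enrichment (a ratio), −log10 p and −log10 q values and a summit offset for every peak. The authors also deposited tables of regions enriched in KO or in WT, per the file headers, each region with a score whose scale, caller and libraries are unstated. Peak widths also depend on library depth, which is not given.

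Peaks on the primary chromosomes were merged where they touched or overlapped (union regions). Bases covered by peaks were summed over the span plus 2 kb each side of each protein-coding gene (RefSeq, GRCm38.p6; primary chromosomes as in GRCm38.p3). They were scaled to equal totals over all gene windows and tested with limma 3.58.1 (R 4.3.3; trend, robust) as log2(covered bases + 200), which understates changes of genes with few covered bases. Benjamini-Hochberg adjustment ran over all genes tested. The scripts were tested on simulated data. Summed coverage was compared with an exact permutation test, and Wilson intervals came from scipy 1.17.1. A deposited region counted for a window, and a peak for a union region, on an overlap of at least 1 bp.

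Values of the test are printed for the 10 members with the smallest unadjusted p. Covered bases are printed for the 10 members with the most deposited regions. Single peaks are printed for the 5 regions of highest mean fold among those with a peak in all 4 libraries. Deposited regions are printed for the 5 highest scores in member windows. A gene named beyond these was chosen after its values were seen. The members and lists were chosen with earlier results of these data known. Alternatives were other pseudocounts, scalings, filters, peak sets, windows, a replicate block and each library left out.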

Additional observations from a re-analysis of the deposited data

How the results depend on the processing

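With limma 0 members passed under any of the 14 settings, and 126 of 128 alternative values of the 10 named members kept their sign, though sizes moved. These members were picked for a small p in the same libraries that the alternatives reuse, so the kept signs are no separate support. With equal numbers of peaks Ifngr2 was -0.57 and Stat3 -0.37, neither with an unadjusted limma p under 0.05, and Jak3 was 0.01. On the span alone Jak3 was 0.03, and with 5-fold peaks Ifngr2 was -2.66. With peaks of at least 5-fold enrichment Ifnar2 turned to 0.14 and Ifngr1 to 0.23, 33 members were tested, and Stat3 and Csf3r were not. The median log2 change of members was -0.14 without scaling, when the median of all genes was -0.10, and ran from -0.09 to 0.03 when 1 library was left out. The median of the class II receptor chains, followed after seeing the data, was 0.18 with 5-fold peaks and ran from -0.75 to -0.15 when 1 library was left out. The summed difference ran from -35696.5 to 5576.5 bases when 1 library was left out; the positive value is the one without KO replicate 3. At a score of at least 5 the WT-higher regions numbered 17 in 14 members (35.0%, against 15.8% of genes) and 4.13% of member union regions held one. Regions with peaks in both WT and no KO library numbered 4 with 5-fold peaks, none of them among the 15 of the main setting. Such regions numbered 8 with equal numbers of peaks. They numbered 24 to 44 when 1 library was left out, where by construction fewer libraries must match. The opposite pattern numbered 1 with 5-fold peaks and 12 to 24 when 1 library was left out. With the replicate number as a block 0 members passed with limma. The median of -0.02 and the summed difference of -15060 bases were unchanged by construction, since both genotypes have the same replicate numbers. An unadjusted limma p under 0.05 was found in 5 of 36 members, against 2 without the block, and in 828 genes, against 568. Deviations of same-numbered libraries from their genotype means correlated at r = 0.09 across genes. With only 1 difference between replicates in each genotype, this cannot decide whether same-numbered libraries were handled together. The pairing is unknown. Leaving out a library leaves a lone sample that is assumed to vary like the others. Read depth is unknown, so the limit it sets could not be given.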
